A study of Homo sapiens with 5 samples.

Results

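The genes described here are 10 that mark the state of an epithelial or a mesenchymal cell: the cadherin genes CDH1, CDH2 and CDH11, the vimentin gene VIM, and the transcription factor genes SNAI1, SNAI2, TWIST1, ZEB1, ZEB2 and FOXC2. They were chosen by symbol, as every probe that the platform annotation gives to a member. That gave 14 probes of the 47231 on the array, at least 1 for each gene. A probe was kept where its detection p, the chance of such a signal from background alone, was under 0.05 on at least 2 independent arrays. Of the 14 probes 9 were kept, out of 21986 kept in all, and they stood for 7 of the 10 genes.

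The study used MDA-MB-231, a long-established line from a human breast cancer, labelled basal and estrogen receptor negative. Its cells were kept for 24 h with 10 µM fluvastatin, or with sterile water in the mock controls. Fluvastatin is a statin, which blocks the enzyme that makes mevalonate. Control replicates 1 and 3 were compared with fluvastatin replicates 1 and 2, because the column of control replicate 2 equalled the mean of the other controls in 47231 of 47231 probes to within 1e-06. All groups share the same line, so they describe a single tumour's cells, and the labels do not say whether replicates were separate cultures. The p-values therefore measure only the spread between these arrays, and the number of arrays limits the precision.

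Cadherins are calcium-dependent adhesion molecules that join neighbouring cells and bind catenins inside the cell. In an epithelial-to-mesenchymal transition (EMT), cells give up E-cadherin, the product of CDH1, and take on N-cadherin (CDH2), cadherin 11 (CDH11) and vimentin, an intermediate filament protein. Factors of the SNAI, ZEB and TWIST families bind E-box sequences in DNA and repress epithelial genes, CDH1 among them, while FOXC2 is a forkhead factor tied to mesenchymal cells. MDA-MB-231 is widely used as a line with mesenchymal features.

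Before the values, the sequence of the CDH2 gene's RefSeq promoter windows is shown, since CDH2 was the member with the largest change. Each window covers 300 bases around an annotated start, most of them before it, is credited to RefSeq on GRCh38.p14 and is written 5′ to 3′ on the minus strand, at chr18:28177081-28177380 and chr18:28036592-28036891 in that order. Capitals mark the general E-box, CANNTG, which was searched on both strands and includes the narrower core searched as well, CACCTG or CAGGTG.
CDH2 window A: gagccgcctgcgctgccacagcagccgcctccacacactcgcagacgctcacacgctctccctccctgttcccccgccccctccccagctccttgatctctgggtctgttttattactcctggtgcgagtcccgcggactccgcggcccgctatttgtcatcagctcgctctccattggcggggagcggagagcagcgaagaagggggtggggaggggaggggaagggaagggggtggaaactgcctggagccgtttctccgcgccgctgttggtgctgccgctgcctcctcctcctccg
CDH2 window B: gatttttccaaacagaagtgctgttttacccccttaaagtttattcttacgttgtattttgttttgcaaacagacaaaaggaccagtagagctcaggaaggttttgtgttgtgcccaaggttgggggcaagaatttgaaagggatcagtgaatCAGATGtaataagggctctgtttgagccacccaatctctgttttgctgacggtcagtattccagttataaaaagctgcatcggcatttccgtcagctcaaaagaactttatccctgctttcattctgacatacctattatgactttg
Window A held 0 general E-boxes and window B held 1, with its first base 97 bases before the start. Neither held the narrower core. Of all 35116 RefSeq windows of this length, 68.7% held a general E-box and 20.6% held the narrower core. The table also matched VIM (1 window, 0 general E-boxes), ZEB2 (1 window, with 1) and ZEB1 (7 windows). The ZEB1 window at chr10:31318966-31319265 held 3 copies of the narrower core. CDH1, CDH11, SNAI1, SNAI2, TWIST1 and FOXC2 are named only. A match is a description of the letters and not a measured site.

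The line's labelled identity was checked on marker genes first. All 5 markers of a mesenchymal, basal line (VIM, CD44, EGFR, CAV1 and AXL) were detected. Their summed intensity was 41695.9 and 31239 in controls and 50769.1 and 42802.3 with fluvastatin, and 0 of them passed the test. This sum and those below are of deposited intensities, which were not normalized. The luminal markers ESR1, PGR and FOXA1 had no kept probe, while GATA3, KRT8, KRT18, KRT19 and EPCAM did. The summed intensity of those 5 luminal genes was 4557.6 and 3512.8 in controls and 9896.9 and 9616.9 with fluvastatin, and KRT19 alone passed the test (log2 fold change 1.35, adjusted p = 0.00964). KRT19 made up most of the sum, with 2240.9 and 1799.8 in controls and 6538.2 and 6385.4 with fluvastatin. The other 4 did not move together: KRT8 (0.55, adjusted p = 0.0650) and EPCAM (0.41, adjusted p = 0.320) had positive values, KRT18 (-0.62, adjusted p = 0.0501) and GATA3 (-0.82, adjusted p = 0.0575) negative ones. Of 6 markers of fibroblasts, endothelium and leukocytes, COL3A1 and PTPRC had no kept probe. The other 4 summed to 573.6 and 475.1 in controls and 1051.2 and 788.8 with fluvastatin, and ACTA2 rose by 1.11 (adjusted p = 0.0315). The calls of KRT19 and ACTA2 were lost without either control replicate. The part of these markers in the values below was not tested. The share of probes detected was 43.0% to 46.9% per array, and the fluvastatin arrays lay further apart (2.77% of kept probes at least 2-fold apart) than the controls (0.337%).

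Fluvastatin-treated cells had less CDH2 signal, and CDH1 was not above background in either group. CDH2 fell by 1.67 ± 0.15 (SE) on the log2 scale. FOXC2 passed the test as at least 1.37-fold higher, from controls not above background, a call lost in 8 of 11 alternatives. The other 7 kept probes, of CDH11, VIM, SNAI2, ZEB1 and ZEB2, did not pass the test. So 2 of 9 kept member probes passed, 1 in each direction, where 16.9% of all kept probes passed, 8.64% higher and 8.29% lower. By gene it was 2 of 7, against 20.1% of 12080 genes. That share is near the background, so it is not a result about the members. The groups did not overlap in 7 of 9 kept member probes, 3 higher and 4 lower, where 64.7% of all kept probes showed no overlap, 32.8% higher and 31.8% lower. Their median log2 fold change was 0.16, beside 0.0022 over all kept probes. FOXC2 passed the detection filter only through the fluvastatin arrays, so its presence among the kept probes is no support for its change. Groups were compared by limma, two-sided, on log2 intensities, with Benjamini-Hochberg adjustment over all 21986 kept probes and calls were made below 0.05 after adjustment.

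**Figure D1:**
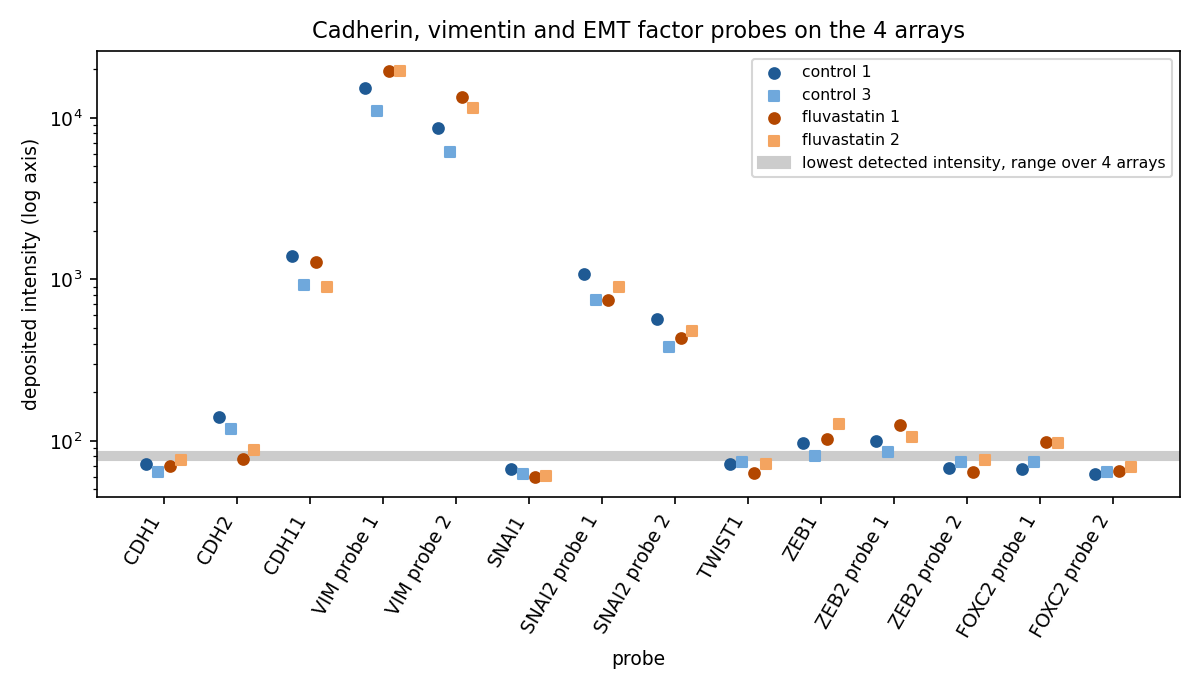
Deposited intensity (log axis) of all 14 member probes on the 4 independent arrays, 1 point per array, with controls in blue and fluvastatin in orange. The grey band spans the lowest detected intensity of each array, from 76.5 to 85.7. The probes of CDH1, SNAI1 and TWIST1, the second probe of ZEB2 and the second of FOXC2 lie at or below the band on every array.

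N-cadherin is the adhesion molecule whose gain marks mesenchymal carcinoma cells. Its probe (ILMN_1779228) had deposited intensities of 140.0 and 118.1 in controls and 77.6 and 87.7 with fluvastatin. On the normalized log2 scale these were 6.59 and 6.57 in controls and 4.85 and 4.97 with fluvastatin. Both fluvastatin arrays lay below both controls, and the groups did not overlap. The gap between controls was 0.026 and that between fluvastatin arrays 0.12, both far smaller than the difference between groups. Controls averaged 6.58 ± 0.018 and treated cells 4.91 ± 0.083 (SD over 2 arrays in each group). The log2 fold change was -1.67 ± 0.15 with a 95% interval from -2.05 to -1.29 (limma, adjusted p = 0.00734). That is a 3.18-fold fall in RNA from whole cultures, where fewer cells with the transcript and less of it per cell cannot be told apart, and 0.623% of the kept probes had a lower log2 fold change.

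The treated level of CDH2 sat at the limit of detection. Its detection p was 0 in both controls but 0.0455 and 0.0299 with fluvastatin, just inside the rule, and the lowest detected log2 values of those arrays were 4.83 and 4.90. The size of the fall therefore rests on how background is removed. It was -0.86 ± 0.11 without background correction, -1.02 ± 0.12 with an offset of 50 and -0.76 ± 0.10 in the authors' normalized values. The call held in each of the 11 alternatives run, with adjusted p from 2.57e-05 to 0.0343. The lowest of these came from median scaling, whose fit pooled all probes into 1 variance. Only 1 probe is annotated to CDH2, so no second probe on the array could be set beside it.

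By the rule of smallest Euclidean distance over the 4 arrays, after centring each probe on its mean, the 3 genes nearest CDH2 among 11870 were PAK1IP1 (distance 0.011 on the log2 scale), NOLC1 (0.048) and NOP56 (0.069). Their log2 fold changes were -1.67, -1.65 and -1.67. All 3 fell past the threshold (adjusted p = 0.00734, 0.00734 and 0.0074). They were chosen by distance to CDH2, so the match in fold change follows from the choice and is no support. It also rests on treated CDH2 values at the limit of detection.

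E-cadherin is the adhesion molecule that defines epithelial sheets. The CDH1 probe (ILMN_1770940) had intensities of 71.7 and 64.1 in controls and 69.5 and 76.2 with fluvastatin, with detection p from 0.139 to 0.566. It was above background on no array in either group, so no fold is given. A fall of N-cadherin signal was thus measured with no detectable E-cadherin signal on either side, and a change of CDH1 below the detection limit cannot be seen on these arrays.

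Cadherin 11 is a classical cadherin of mesenchymal tissue. Its probe (ILMN_1672611) gave log2 intensities of 10.35 and 10.19 in controls and 10.04 and 9.64 with fluvastatin. Both treated arrays lay below both controls, but the treated arrays were 0.40 apart. The log2 fold change was -0.43 ± 0.20, with a 95% interval from -0.92 to 0.053, and did not pass (adjusted p = 0.175). It did not pass in any of the 11 alternatives (log2 fold change -0.65 to -0.23). In the setting reported, the interval for CDH11 lies above that for CDH2, though the difference between these genes was not tested. Without background correction they lay closer together, at -0.41 ± 0.16 for CDH11 and -0.86 ± 0.11 for CDH2.

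Vimentin builds the intermediate filaments of mesenchymal cells, and it has 2 probes here. The brighter probe (ILMN_1782538) gave log2 intensities of 13.93 and 13.75 in controls and 14.08 and 14.10 with fluvastatin. The other probe (ILMN_2058251) gave 13.07 and 12.94 in controls and 13.55 and 13.33 with fluvastatin. On both probes the treated arrays were the higher ones, without overlap between groups. The log2 fold changes were 0.24 ± 0.16 (95% interval -0.15 to 0.64, adjusted p = 0.319) and 0.44 ± 0.17 (0.020 to 0.85, adjusted p = 0.126), and neither passed. The dimmer probe passed with the authors' values (0.48, adjusted p = 0.0456) and with all 5 deposited columns (0.43, adjusted p = 0.0261). The upper bounds of both intervals lie under a doubling, which is 1 on this scale.

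**Figure D2:**
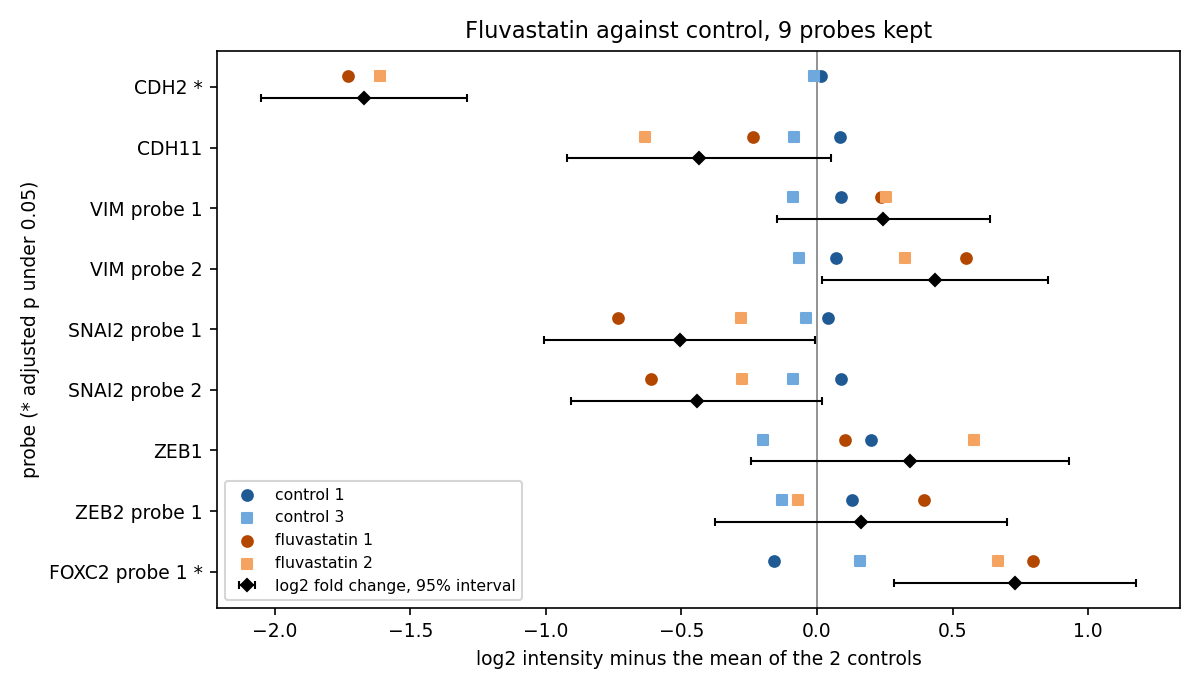
Log2 intensity of the 9 kept probes on each array minus the mean of the 2 controls (coloured points), with the limma log2 fold change and its 95% interval (black diamonds and bars). CDH2 stands at -1.67, apart from the other 8 probes, and FOXC2 is the other probe past the threshold, its fitted value set against controls not above background.

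SNAI2, or SLUG, is a zinc finger repressor of the SNAI family, detected by both of its probes on every array. Its brighter probe (ILMN_2082585) gave log2 intensities of 9.97 and 9.89 in controls and 9.20 and 9.65 with fluvastatin. The other probe (ILMN_1655740) gave 9.01 and 8.83 in controls and 8.31 and 8.64 with fluvastatin. Both probes were lower on both treated arrays without overlap, and on both fluvastatin replicate 1 was the lower. The log2 fold changes were -0.51 ± 0.20 (95% interval -1.01 to -0.0067, adjusted p = 0.135) and -0.44 ± 0.19 (-0.91 to 0.020, adjusted p = 0.152), so neither passed. Without fluvastatin replicate 2, the brighter probe passed at -0.74 (adjusted p = 0.0292). With all 5 deposited columns both probes passed, at -0.51 and -0.45 (adjusted p = 0.0438 and 0.0428). SNAI1, or SNAIL, the founding human member of that family, was not above background on any array (ILMN_1758086, detection p from 0.378 to 0.932).

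ZEB1 and ZEB2 are zinc finger homeobox repressors whose transcripts are bound by the miR-200 family of microRNAs, in a mutual repression known from breast and other epithelial cells. The ZEB1 probe (ILMN_1762231) gave log2 intensities of 5.63 and 5.24 in controls and 5.54 and 6.02 with fluvastatin. The brighter ZEB2 probe (ILMN_1688698) gave 5.74 and 5.48 in controls and 6.004 and 5.54 with fluvastatin. In both genes the groups overlapped, and replicates of a group differed by 0.26 to 0.48. The log2 fold changes were 0.34 ± 0.24 for ZEB1 (95% interval -0.24 to 0.93, adjusted p = 0.349) and 0.16 ± 0.22 for ZEB2 (-0.38 to 0.70, adjusted p = 0.631). Without fluvastatin replicate 1 the ZEB2 difference turned to -0.069. Both probes were dim, with intensities of 80.7 to 126.2 for ZEB1 and 84.9 to 124.9 for ZEB2, near the lowest detected. Without background correction the log2 fold changes were 0.17 ± 0.14 for ZEB1 and 0.084 ± 0.13 for ZEB2. The second ZEB2 probe (ILMN_1820767) was not detected on any array, with detection p from 0.100 to 0.353.

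The array also carries probes annotated to the miR-200 family genes, looked at after their values were seen. None of the 5 was detected on any array, with detection p from 0.104 to 0.943. A labelled cRNA of this kind need not capture a mature microRNA, so these values bear on its level in neither direction. The mature sequences are shown because they split the family into 2 seeds (bases 2 to 8, in capitals), credited to RefSeq.
hsa-miR-200b-3p: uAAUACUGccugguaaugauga
hsa-miR-200c-3p: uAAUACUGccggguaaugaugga
hsa-miR-429: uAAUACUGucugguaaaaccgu
hsa-miR-200a-3p: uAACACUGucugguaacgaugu
hsa-miR-141-3p: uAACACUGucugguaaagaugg
The seed of miR-200b, miR-200c and miR-429 was AAUACUG, and that of miR-200a and miR-141 was AACACUG.

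TWIST1 is a basic helix-loop-helix factor of mesoderm. Its probe (ILMN_1672908) had intensities of 72.1 and 73.8 in controls and 62.9 and 71.6 with fluvastatin. None of these was above background, and with the second ZEB2 probe it was the closest to the rule from outside, with a lowest detection p of 0.103. No fold is given for it.

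FOXC2 is a forkhead factor needed for vessels and mesoderm. Its kept probe (ILMN_1705201) had intensities of 66.7 and 73.6 in controls and 97.6 and 97.4 with fluvastatin. It was above background on neither control (detection p 0.382 and 0.112) and on both treated arrays (0.0013 and 0.00779), so the control level is only a bound. Normalized log2 values were 4.48 and 4.79 in controls and 5.43 and 5.30 with fluvastatin, with no overlap. FOXC2 was at least 1.37-fold higher with fluvastatin, from the treated mean against, on each control array, the lowest signal among detected probes. The adjusted p of the limma fit was 0.0464, for a probe that the detection filter kept only because of the group where it was higher. This call passed in 3 of 11 alternatives, 1 of them with all 5 deposited columns, where the p-values are too small. It was lost without background correction (adjusted p = 0.0906), with an offset of 50 (adjusted p = 0.0895), with the authors' values (adjusted p = 0.101), with no filter on dim probes (adjusted p = 0.0671) and when any single array was left out (adjusted p from 0.0536 to 0.315). The second FOXC2 probe (ILMN_1906438) was not detected on any array, with intensities from 62.4 to 69.1. By the same distance, which here includes the control values not above background, the nearest genes to FOXC2 were ALDH3A2 (0.035), ARHGEF4 (0.037) and ADCK5 (0.040). Their log2 fold changes were 0.72, 0.74 and 0.70, and ADCK5 did not pass (adjusted p = 0.0504).

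**Figure D3:**
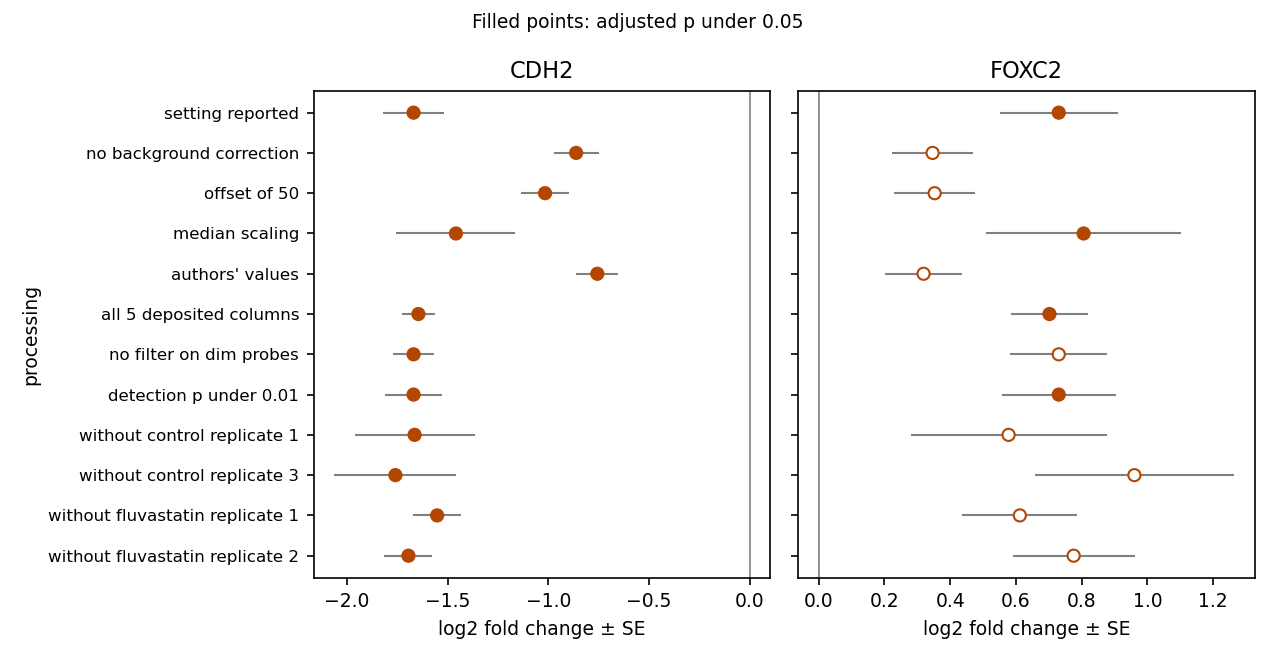
Log2 fold change ± SE of CDH2 (left) and FOXC2 (right) under the setting reported and the 11 alternatives. Filled points have an adjusted p under 0.05. All 12 points of CDH2 are filled, between -1.76 and -0.76, against 4 of FOXC2, whose fitted values are set against controls not above background and are no measure of size.

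The genes around the members were taken from 9 lists, in each of which a gene is its brightest kept probe. Among 12 measured catenins and adherens junction partners, 1 rose, 1 fell and 10 did not pass, where 20.1% of all genes passed (median -0.017, beside 0.013 over all 12080 genes). Plakoglobin (JUP), the catenin shared by adherens junctions and desmosomes, had log2 intensities of 8.60 and 8.61 in controls and 10.62 and 10.88 with fluvastatin. Both treated arrays stood far above both controls. JUP rose by 2.15 ± 0.17 (adjusted p = 0.00713). Of its other probes, 1 rose by 1.70 and 1 was at least 3.57-fold higher, from a control level not above background. The latter was kept only through the fluvastatin arrays, so it is no support for the rise. The call of the brightest probe held in 11 of 11 alternatives. CTNNAL1, a relative of alpha-catenin, fell by 0.63 ± 0.16 (adjusted p = 0.0482), a call lost in 5 of 11 alternatives, each control left out among them. A dimmer CTNNAL1 probe fell by 0.96 (adjusted p = 0.0174).

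Among the alpha-, beta- and p120 catenin genes, 1 probe of CTNND1 passed the test. Beta-catenin (CTNNB1) gave 9.93 and 9.91 in controls and 10.02 and 10.01 with fluvastatin, a log2 fold change of 0.093 ± 0.15 (adjusted p = 0.692). Alpha-catenin (CTNNA1) was at 0.34 ± 0.17 (adjusted p = 0.203). For p120 catenin (CTNND1), which stabilises cadherins at the membrane, the brightest probe was at 0.92 (adjusted p = 0.0709), another passed at 0.98 (adjusted p = 0.0334) and a dim one was at 0.084. The nectins NECTIN1 (-0.56, adjusted p = 0.0648) and NECTIN3 (-0.71, adjusted p = 0.0658), adhesion molecules that act beside cadherins, did not pass.

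Of the 17 other cadherins with a probe, 14 had none kept, among them the P-cadherin gene CDH3. The 3 measured were CDH15 (at least 1.15-fold higher from controls not above background, adjusted p = 0.111), CDH24 (-0.63, adjusted p = 0.326) and CDH20 (-0.055, adjusted p = 0.855), and 0 passed. CDH15 was kept only through the fluvastatin arrays. Over all genes 20.1% passed, the share to set beside each count of genes in this paragraph. Among 8 genes of cadherin cleavage and turnover 0 passed (median 0.22). The gamma-secretase subunit genes APH1A (0.92, adjusted p = 0.0808) and PSENEN (0.54, adjusted p = 0.0832) and the gene of the E-cadherin ubiquitin ligase Hakai, CBLL1 (-0.71, adjusted p = 0.0544), were the closest to the threshold, followed by NCSTN (0.42, adjusted p = 0.128). CBLL1 was lower on both treated arrays than on both controls, as were 31.8% of all kept probes. Its other probe was at -0.23 (adjusted p = 0.360). Among 4 measured intermediate filament partners of vimentin, the lamin gene LMNB1 fell by 0.88 ± 0.18 (adjusted p = 0.0298), a call lost in 4 of 11 alternatives, each control left out among them, and 3 did not pass. These were LMNA (0.69, adjusted p = 0.0944), PLEC (0.53, adjusted p = 0.114) and SYNM (0.050, adjusted p = 0.840). Other probes disagreed on the call: a dimmer LMNA probe passed at 1.41 (adjusted p = 0.00879) and a dim PLEC probe, not above background on either fluvastatin array, was at least 1.62-fold lower (adjusted p = 0.0258). That PLEC probe was kept only through the control arrays.

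Other EMT transcription factors did not pass in any of 7 measured genes (median -0.28), where 20.1% of all genes passed. TCF12 was at -0.55 (adjusted p = 0.0643), HMGA2 at -0.41 (adjusted p = 0.117), ETS1 at -0.28 (adjusted p = 0.289) and SOX9 at -0.25 (adjusted p = 0.375). FOXQ1, a forkhead relative of FOXC2, differed between the treated arrays, at 6.90 and 8.48 on the log2 scale, against 8.06 and 7.92 in controls. The family members SNAI3 and TWIST2 had no kept probe.

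Among corepressors that SNAI1 and ZEB1 recruit, of 12 measured genes 4 fell, 0 rose and 8 did not pass (median -0.45), where 9.65% of all genes fell. AJUBA, a LIM protein that bridges SNAI factors to their partners, gave log2 intensities of 8.86 and 8.77 in controls and 6.97 and 7.08 with fluvastatin. Both treated arrays lay well below both controls, and AJUBA fell by 1.79 ± 0.15 (adjusted p = 0.00713), a call that held in 11 of 11 alternatives. Of its other kept probes, 1 fell by 1.48 and 1, not above background on either fluvastatin array, was at least 1.43-fold lower. The latter was kept only through the control arrays, so it is no support for the fall. The histone methyltransferase gene SUV39H1 fell by 0.92 (adjusted p = 0.0216), the polycomb gene SUZ12 by 0.72 (adjusted p = 0.0323) and the corepressor gene CTBP2 by 0.77 (adjusted p = 0.0456). These 3 calls were lost with median scaling, which left 1 fall in the list, and without either control replicate. That of CTBP2 was also lost with no filter on dim probes and without fluvastatin replicate 1. A dimmer CTBP2 probe was at 0.088 (adjusted p = 0.729). The methyltransferase gene EZH2 was at -0.51 (adjusted p = 0.104) by its brightest probe, while another of its probes passed at -0.84 (adjusted p = 0.0297). The histone deacetylase genes HDAC1 (0.14, adjusted p = 0.552) and HDAC2 (-0.60, adjusted p = 0.0558) did not pass.

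Of 7 measured genes that set the stability of SNAI1 and ZEB1 proteins, 3 fell, 0 rose and 4 missed the threshold (median -0.29), where 9.65% of all genes fell and 10.5% rose. The kinase gene LATS2 fell by 1.16 ± 0.16 (adjusted p = 0.0141), and the ubiquitin ligase genes FBXO45 by 1.33 ± 0.23 (adjusted p = 0.0209) and FBXW7 by 0.79 ± 0.18 (adjusted p = 0.0400). All 3 calls were lost when either control replicate was left out. That of FBXW7 was also lost with median scaling, with no filter on dim probes and without fluvastatin replicate 1. In addition, 2 other kept FBXW7 probes were at -0.30 and 0.15 and did not pass. GSK3B, a kinase that marks SNAI1 for degradation, was at -0.29 (adjusted p = 0.318).

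Epithelial regulators that oppose EMT were mostly undetected, with 8 of 11 genes without a kept probe, the splicing regulator genes ESRP1 and ESRP2 among them. ELF3, an epithelial ETS factor, gave 6.63 and 6.55 in controls and 9.67 and 9.19 with fluvastatin. It rose by 2.84 ± 0.21 (adjusted p = 0.00711), while KLF4 (-0.43, adjusted p = 0.104) and EHF (0.33, adjusted p = 0.230) did not pass. That is 1 of 3 measured genes, where 20.1% of all genes passed. Of 10 measured epithelial genes known to be repressed by SNAI or ZEB factors, 2 rose, 1 fell and 7 did not pass (median 0.33), where 20.1% of all genes passed, 10.5% higher and 9.65% lower. LLGL2, 1 of the 2, and PKP3, which did not pass, were kept only through the fluvastatin arrays, so the median rests partly on the filter. It was 0.20 with no filter on dim probes. Over the alternatives it ranged from 0.076 (without fluvastatin replicate 2) to 0.52 (median scaling). The tight junction gene CLDN7 gave 6.86 and 6.74 in controls and 9.94 and 9.55 with fluvastatin. It rose by 2.95 ± 0.19 (adjusted p = 0.0058), and both the ELF3 and the CLDN7 call held in 11 of 11 alternatives.

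The polarity gene LLGL2 was at least 1.29-fold higher (adjusted p = 0.0353), from a control level not above background, and this call was lost in 6 of 11 alternatives. Of its other kept probes, 1 was at least 1.01-fold higher from controls not above background (adjusted p = 0.453). Another was at 0.19 (adjusted p = 0.592), and neither passed. The desmosomal plaque gene PKP2 fell by 1.26 ± 0.18 (adjusted p = 0.0141), a call lost without either control replicate, and PATJ, a polarity gene, was at 0.89 (adjusted p = 0.0538). EPCAM and the desmoplakin gene DSP did not pass (0.41, adjusted p = 0.320, and 0.15, adjusted p = 0.638). In the same arrays where CDH1 was undetected, JUP, CLDN7 and ELF3 rose, while CTNNAL1 and PKP2 of the same lists fell. The other claudins measured, CLDN1 (-0.64, adjusted p = 0.189) and CLDN4 (-0.18, adjusted p = 0.739), did not pass. Falls also passed among the corepressors (4), the protein stability genes (3) and the intermediate filament partners (1). Most other measured genes of these lists did not pass the test. All comparisons here share the same control arrays, so the lists are not independent of the members' own values.

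**Figure D4:**
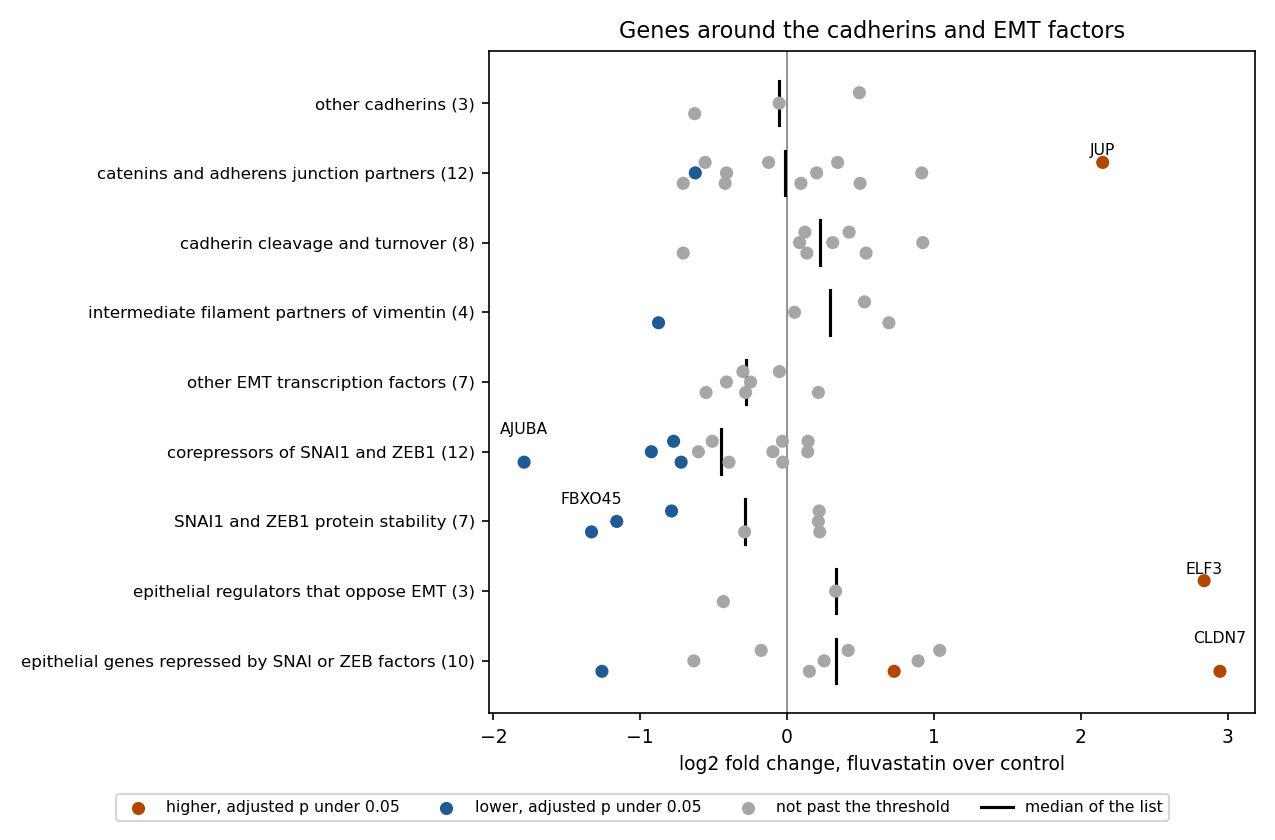
Log2 fold change of each measured gene in the 9 lists around the members, 1 point per gene, with the number measured in parentheses and a black bar at the list median. Orange and blue points passed the threshold as higher and lower. JUP, ELF3 and CLDN7 lie above 2 and AJUBA at -1.79.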

How the data were processed

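Total RNA was labelled with biotin and hybridised to Illumina bead arrays, per the labels' protocols. The deposited table gives 1 intensity per probe and sample, not background-subtracted or normalized as far as the values show, and, per the file headers, also a detection p-value. A second table the authors deposited holds log2 values whose columns have nearly equal distributions (medians 6.23). The submitters' processing notes name R 3.1.0, and the scanner software and genome build are not given in the sources used here. Groups came from titles, since the protocol text on treatment is the same for both groups. Every per-sample column was mapped (0 unused), and control replicate 2 entered 1 alternative. There it counts as an independent array though it is the mean of the other controls, so the p-values of that alternative are too small.

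In R 4.3.3, the neqc function of limma 3.58.1 corrected the intensities (background from detection p, offset 16, quantile normalization, log2), and groups were compared by lmFit and eBayes (2 residual and 3.72 prior degrees of freedom). The steps were tested on simulated data. Symbols came from the platform annotation, checked through gene identifiers against RefSeq (0 member symbols changed); 30113 probes had 1 symbol, 8 several and 17110 none. Members and lists were chosen with earlier results of these data known. Named genes are all members, up to 4 genes per list with the smallest p, and the 3 nearest in pattern. Others (such as CTNNB1, CTNNA1, CTNND1, HDAC1, HDAC2, EZH2, FOXQ1, SNAI3, TWIST2, EPCAM and DSP) were named after their values were seen. With 2 against 2 arrays an exact permutation test cannot go below 0.333, so none was used.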

Additional observations from a re-analysis of the deposited data

How the results depend on the processing

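The fall of CDH2 kept its direction and its call in 11 of 11 alternatives (log2 fold change -1.76 to -0.76). CDH11, ZEB1 and the brighter VIM probe kept their direction and did not pass in any, and the dimmer VIM and both SNAI2 probes kept theirs and passed in 2, 2 and 1 of 11. ZEB2 reversed to -0.069 without fluvastatin replicate 1, and leaving out 1 array at a time it ranged up to 0.39. FOXC2 passed in 3 of 11.

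The count of member probes past the threshold, 2 as reported, was 1 without background correction, 1 at an offset of 50, 1 with no filter on dim probes and 5 with all 5 deposited columns, and ranged from 1 to 2 leaving out 1 array. That of member genes, also 2, was 1 with the authors' values, with no filter, with an offset of 50 and without background correction, and 1 to 2 leaving out 1 array. Over all kept probes the count of 3722 became 8927 with all 5 columns and ranged from 433 to 7046 leaving out 1 array. It was 433 without control replicate 3, 468 without control replicate 1 and 7046 without fluvastatin replicate 2. The causes were not tested. Median scaling moved the median of all kept probes by 0.19 and the share of calls that were higher from 51.0% to 77.7%. CDH2 was at -1.46 there. No paired analysis was possible because the independent arrays of the groups share only replicate number 1. Signal over background limits CDH1, SNAI1, TWIST1, ZEB1, ZEB2, FOXC2 and the treated level of CDH2.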
